A study of Mus musculus with 8 samples.

Results

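The cholesterol synthesis genes followed here were Srebf2, Insig1, Hmgcs1, Idi1, Fdps, Fdft1, Sqle and Cyp51. They were taken by symbol, and all 8 were found among the 51822 gene symbols used in each of the 8 libraries. All 8 were also among the 12514 symbols tested, those with an RPKM (reads scaled by gene length and by the mapped reads of the library) of at least 1 in at least 2 libraries. The libraries were RNA sequencing of mouse osteoblast progenitors grown in osteogenic medium with the vehicle DMSO (control) or with locamidazole (LAMZ), an aminoindazole derivative, at 1 μmol·L−1. RNA was taken at day 7 and at day 14, and each of the 4 groups holds 2 libraries. The sample labels name the cells as MC3T3-E1, a clonal osteoblastic line from mouse calvaria, whereas the study's methods describe cultured calvarial cells, and the report uses the groups as labelled. No genotype differed between the groups. Whether the libraries of a group came from separate cultures is not given in the sources used here, so the p values measure only the spread between these libraries, which may be technical.

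From the steps between low values, each library was estimated to hold from 3463538 to 5832101 mapped reads. Sums of RPKM over marker lists gave the cell types present. The 7 osteoblast markers summed to 4497 to 11399 in every library, and the 5 endothelial markers to at most 1.31. The 12 macrophage markers, which define no osteoblastic cell, summed to 467.7 to 611.3 in day 7 control, 1155 to 1181 in day 14 control and 7.29 to 9.28 in the LAMZ libraries of both days, where C1qa, C1qb, C1qc, Tyrobp and Ctss were at 0. The macrophage values in control are more than the labelled clonal osteoblastic line alone would give. Whether the cells were the calvarial culture of the study's methods was not tested. The 7 adipocyte markers summed to 30.7 to 111.5 in control and 8.73 to 12.4 in LAMZ libraries. Skeletal muscle markers summed to at most 4.98 in 3 groups and to 19.1 and 23.4 in day 14 LAMZ, almost all of it Acta1. In such bulk samples, fewer cells of a type and less RNA per cell cannot be told apart.

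Cells build cholesterol from acetyl-CoA, first along the mevalonate arm to farnesyl diphosphate and then along the sterol arm, which starts with squalene. The mevalonate arm also supplies the isoprenoid groups that are attached to small GTPases, and its enzyme farnesyl diphosphate synthase is the target of the nitrogen-containing bisphosphonates used against bone loss. Transcription of the enzymes is driven by SREBP2, the product of Srebf2, which is released from the endoplasmic reticulum when sterols are low, while INSIG1 retains its precursor there when sterols are high.

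RefSeq promoter windows (GRCm38.p6, 250 bases before to 50 after the start) were at hand for Srebf2, Insig1, Hmgcs1, Idi1 and Cyp51, and the entries for Fdps, Fdft1 and Sqle were missing. Both strands were searched for 4 short motifs that sterol-regulated promoters are known for. The core of the sterol regulatory element, TCACNCCAC, occurred in 1.24% of all 32851 windows and in 1 of the 5 member windows, that of Hmgcs1, at 137 bases before the start. CCAAT, the NF-Y motif, occurred in 37.4% of all windows and in 5 of 5 member windows, and GGGCGG, the Sp1 motif, in 35.7% and 5 of 5. CACGTG, an E-box, occurred in 7.15% of all windows and in that of Insig1 alone among the members. The matches are descriptions of letters and not of binding. Only exact matches were sought, so a sterol element that differs from TCACNCCAC by a base would be missed. A window without a match may therefore still hold such an element. The 250 bases before the start are shown for Hmgcs1 (chr13:119690101-119690350, plus strand), the only one of the 5 with an exact match to TCACNCCAC. They are also shown for Insig1 (chr5:28071162-28071411, plus strand), which alone held an exact CACGTG. Cyp51 (chr5:4104698-4104947, minus strand) is shown too, as it had the steepest fall with time in control cells of the 5. Each reads 5′ to 3′ along the gene, with matches to the 4 motifs on either strand in capitals.
Hmgcs1: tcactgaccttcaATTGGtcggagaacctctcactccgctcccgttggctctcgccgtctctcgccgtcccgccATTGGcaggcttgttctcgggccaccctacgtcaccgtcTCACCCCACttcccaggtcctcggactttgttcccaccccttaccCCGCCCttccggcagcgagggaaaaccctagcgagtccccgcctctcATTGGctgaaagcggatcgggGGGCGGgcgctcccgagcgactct
Insig1: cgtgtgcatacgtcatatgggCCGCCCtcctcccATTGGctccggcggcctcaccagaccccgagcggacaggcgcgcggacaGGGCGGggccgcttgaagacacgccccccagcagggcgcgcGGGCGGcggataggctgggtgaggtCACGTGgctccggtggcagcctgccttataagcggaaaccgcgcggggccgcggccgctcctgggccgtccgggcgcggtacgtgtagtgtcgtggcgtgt
Cyp51: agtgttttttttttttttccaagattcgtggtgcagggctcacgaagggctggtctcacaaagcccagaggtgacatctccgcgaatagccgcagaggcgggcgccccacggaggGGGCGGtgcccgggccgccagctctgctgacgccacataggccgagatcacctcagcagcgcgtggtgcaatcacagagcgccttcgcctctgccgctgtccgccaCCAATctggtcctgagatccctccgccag

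All 8 genes fell between day 7 and day 14, in control and in LAMZ-treated cells alike. In control cells the fall ran from 0.59 to 1.78 on the log2(RPKM + 1) scale, and in LAMZ-treated cells from 0.59 to 1.64. Each change was tested by limma on that scale, in 1 model of all 8 libraries, with p-values adjusted by Benjamini-Hochberg over the 12514 tested genes. At an adjusted p under 0.05, 8 of 8 genes were lower at day 14 in control cells, where 2.4% of all tested genes were lower, 2.46% were higher and 4.86% changed in either direction. In LAMZ-treated cells 8 of 8 were lower as well, where 9.26% of all tested genes were lower, 5.1% were higher and 14.4% changed in either direction. The median change of the 8 genes was −1.14 without LAMZ and −1.04 with it, beside −0.045 and −0.11 over all tested genes. The RPKM ranges of day 7 and day 14 did not overlap for any of the 8 genes in either treatment. The share of all tested genes without such overlap was not counted, so this only describes the 8 genes.

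**Figure D1:**
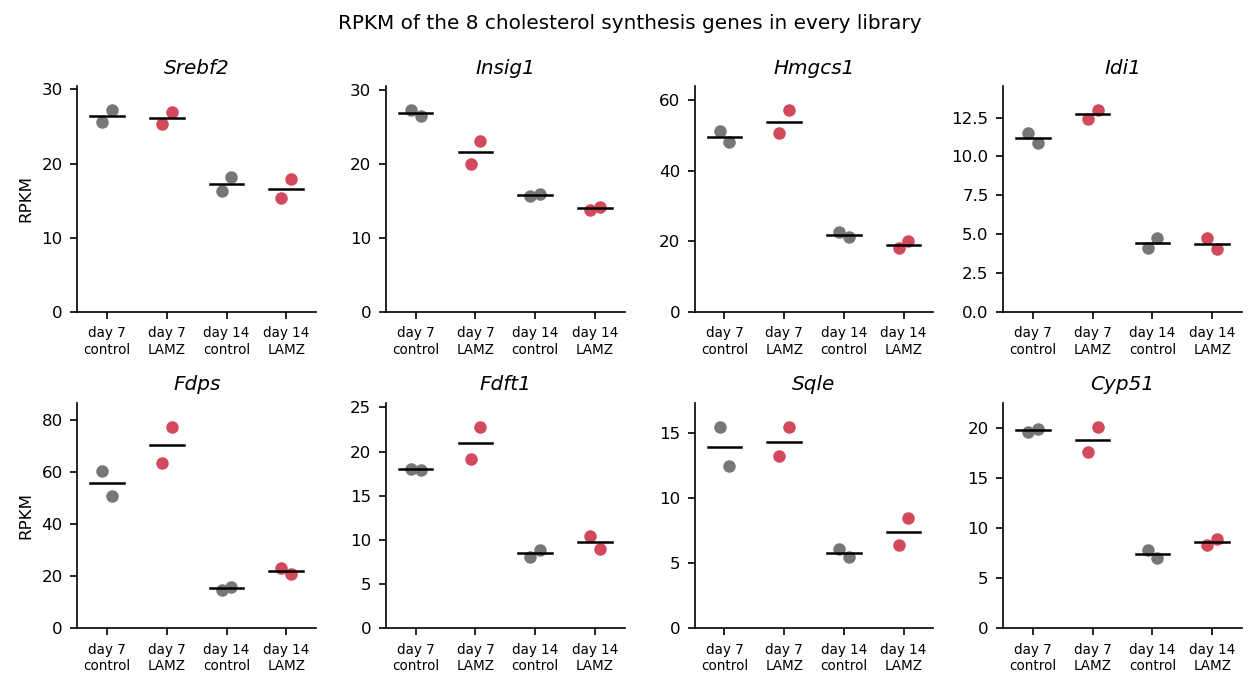
RPKM (linear axes from 0) of the 8 genes in the 4 groups, with a point for each library and a line at the mean of 2 libraries, control in grey and LAMZ in red. In every panel the 4 day 14 libraries lie below the 4 day 7 libraries, and on each day both LAMZ libraries lie above both control libraries for Fdps and Fdft1 and below them for Insig1.

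The regulators Srebf2 and Insig1 had the smallest falls of the 8 genes in both treatments. Srebf2, which encodes the transcription factor SREBP2 (chromosome 15, 82147181 to 82205379, GRCm38), had an RPKM of 25.6 and 27.2 in the day 7 control libraries, 25.4 and 27.0 with LAMZ at day 7, 16.3 and 18.2 in day 14 control and 15.3 and 17.9 with LAMZ at day 14. All 4 day 7 libraries were above all 4 day 14 libraries, and the treatments overlapped on each day. Its log2 change from day 7 to day 14 was −0.59 in control cells (standard error 0.12, adjusted p = 0.0419 by limma) and −0.63 in LAMZ-treated cells (adjusted p = 0.0147 by limma). In control cells this change was under 0.05 with all 8 libraries only: leaving out any 1 library raised the adjusted p from limma to between 0.0601 and 0.191, at changes of −0.51 to −0.66. Insig1, the sterol-dependent retention protein (chromosome 5, 28071363 to 28078662), had an RPKM of 27.3 and 26.5 in day 7 control, 20.01 and 23.1 with LAMZ at day 7, 15.7 and 15.9 in day 14 control and 13.8 and 14.2 with LAMZ at day 14. The order was the same on both days, with both LAMZ libraries below both control libraries. Its log2 change with time was −0.73 in control cells (adjusted p = 0.0154 by limma) and −0.59 in LAMZ-treated cells (adjusted p = 0.0137 by limma).

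The enzymes of the mevalonate arm, Hmgcs1, Idi1 and Fdps, fell by 1.15 to 1.78 on the log2 scale. Hmgcs1, which condenses acetyl-CoA units into HMG-CoA (chromosome 13, 119690379 to 119708260), had an RPKM of 51.3 and 48.2 in day 7 control, 50.8 and 57.2 with LAMZ at day 7, 22.6 and 21.1 in day 14 control and 18.0 and 20.1 with LAMZ at day 14. Every day 7 library was well above every day 14 library, and the treatments overlapped at day 7 but not at day 14. Its log2 change was −1.15 in control cells (standard error 0.12, adjusted p = 0.00583 by limma) and −1.45 in LAMZ-treated cells (adjusted p = 0.000628 by limma). Idi1, which isomerizes isopentenyl diphosphate (chromosome 13, 8885501 to 8892451), was the lowest of the 8 genes, with an RPKM of 11.5 and 10.9 in day 7 control, 12.4 and 13.0 with LAMZ at day 7, 4.09 and 4.73 in day 14 control and 4.75 and 4.03 with LAMZ at day 14. By RPKM, depth and annotated exon length it rested on 69 to 237 reads per library, and its log2 change was −1.17 in control cells (adjusted p = 0.00589 by limma) and −1.35 in LAMZ-treated cells (adjusted p = 0.000849 by limma). For both genes the day 7 and day 14 libraries lay far apart compared with the distance between replicates.

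Fdps, farnesyl diphosphate synthase (chromosome 3, 89093588 to 89101959, minus strand), had the highest mean RPKM over the 8 libraries and the widest range of the 8 genes. Its RPKM was 60.4 and 50.9 in day 7 control, 63.5 and 77.5 with LAMZ at day 7, 14.9 and 15.9 in day 14 control and 23.0 and 20.8 with LAMZ at day 14. The highest library was thus 5.22 times the lowest, and on each day both LAMZ libraries were above both control libraries. Mean RPKM was 55.7 ± 6.71 (SD, n = 2) in day 7 control and 15.4 ± 0.770 in day 14 control, a level 3.61 times lower, and 70.5 ± 9.85 and 21.9 ± 1.57 with LAMZ, a level 3.22 times lower. The log2 change was −1.78 in control cells (standard error 0.14, adjusted p = 0.00273 by limma) and −1.64 in LAMZ-treated cells (adjusted p = 0.000745 by limma). Ordered from the steepest fall, Fdps was the 22nd of all 12514 tested genes in control cells and the 70th in LAMZ-treated cells. In the annotation, 1124 exonic bases of Fdps are shared with Gm43738 on the same strand, which was listed at 0 to 3.39 RPKM.

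The sterol arm genes Fdft1, Sqle and Cyp51 fell by 0.87 to 1.31 on the log2 scale. Fdft1, squalene synthase (chromosome 14, 63145150 to 63179578, minus strand), which commits farnesyl diphosphate to sterols, had an RPKM of 18.1 and 18.0 in day 7 control, 19.2 and 22.8 with LAMZ at day 7, 8.07 and 8.89 in day 14 control and 10.5 and 9.02 with LAMZ at day 14. All LAMZ libraries were above all control libraries of the same day, by little, and its log2 change with time was −1.01 in control cells (standard error 0.13, adjusted p = 0.00967 by limma) and −1.03 in LAMZ-treated cells (adjusted p = 0.00297 by limma). Its 3′ part shares 774 exonic bases, 18.3% of its exon length, with the cathepsin gene Ctsb on the other strand, and the strand setting of the counting is not given in the sources used here. Ctsb moved otherwise, with an RPKM of 97.0 and 114.2 in day 7 control, 182.1 and 203.7 in day 14 control and 51.3 to 55.1 in the 4 LAMZ libraries. The part of Ctsb reads in the values of Fdft1 was not tested.

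Sqle, squalene epoxidase (chromosome 15, 59315077 to 59331192), which carries out the first oxygen-dependent step, had an RPKM of 15.5 and 12.4 in day 7 control, 13.2 and 15.4 with LAMZ at day 7, 6.08 and 5.46 in day 14 control and 6.37 and 8.46 with LAMZ at day 14. It had the widest spread between replicates of the 8 genes (standard error 0.17), and its log2 change was −1.14 in control cells (adjusted p = 0.0131 by limma) and −0.87 in LAMZ-treated cells (adjusted p = 0.0136 by limma). Cyp51, lanosterol demethylase (chromosome 5, 4081145 to 4104746, minus strand), had an RPKM of 19.6 and 19.9 in day 7 control, 17.5 and 20.1 with LAMZ at day 7, 7.76 and 6.96 in day 14 control and 8.31 and 8.86 with LAMZ at day 14. The treatments overlapped at day 7 for both genes, and both LAMZ libraries were above both control libraries at day 14. The log2 change of Cyp51 was −1.31 in control cells (standard error 0.12, adjusted p = 0.00390 by limma) and −1.04 in LAMZ-treated cells (adjusted p = 0.00186 by limma).

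**Figure D2:**
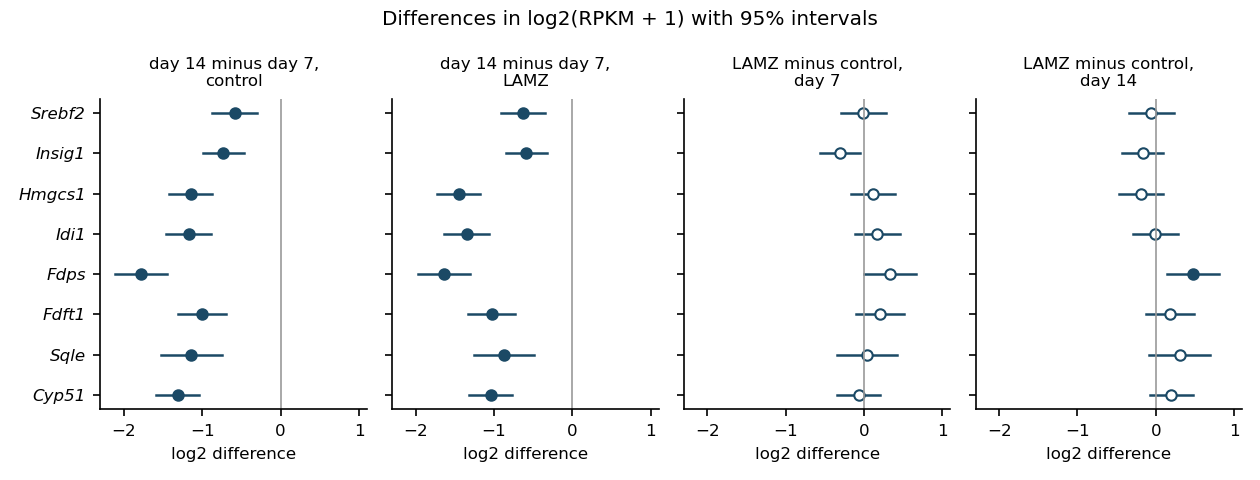
Differences in log2(RPKM + 1) for the 8 genes in 4 comparisons, with points at the limma estimate and bars for its 95% interval (2 libraries per group). Filled points have an adjusted p under 0.05. All 16 points of the 2 comparisons between days are filled and lie from −0.59 to −1.78, and of the 16 points of the 2 comparisons with LAMZ only that of Fdps at day 14 is filled.

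The fall with time kept its direction under 20 alternative settings, in which every change of the 8 genes stayed below 0, from −0.34 to −1.91 in control and from −0.40 to −1.78 in LAMZ-treated cells. Its calls were less firm in control cells, where leaving out 1 library left 4 of 8 genes without day 14 control replicate 1, 5 without day 14 control replicate 2, 5 without day 7 control replicate 1 and 7 in each of the other 5 cases. Hmgcs1, Idi1, Fdps and Cyp51 passed in 8 of these 8 fits, Fdft1 in 7, Sqle and Insig1 in 5 and Srebf2 in 0. In LAMZ-treated cells 5 genes passed without day 7 LAMZ replicate 2 and 5 without day 14 LAMZ replicate 1, and between 6 and 8 in the other fits, with Hmgcs1, Idi1, Fdps, Fdft1 and Cyp51 past the threshold in 8 of 8. The call for Srebf2 in control cells was also lost by limma without a filter (adjusted p = 0.0766), with the same sum (0.160) and with that sum without Rn7s1 (0.121), with trimmed-mean scaling (0.0524) and with no trend (0.0617). In LAMZ-treated cells the same sum lost Srebf2 (adjusted p = 0.0772 by limma) and Insig1 (0.0629), leaving 6 of 8, and that sum without Rn7s1 lost Srebf2 (0.0513). With the 4 control libraries fitted alone, limma called 0 of the 8 genes (the smallest adjusted p was 0.0843, for Fdps) and 0 of all genes, while the unadjusted p of that fit was under 0.05 for 8 of 8.

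Other cell markers moved with the same days. In control cells, where the 8 genes fell, the sums of the macrophage, adipocyte and osteoblast lists were higher at day 14 (adipocyte 30.7 and 42.2 at day 7 and 62.3 and 111.5 at day 14, osteoblast 4497 to 5696 and then 6784 to 7201, most of it Col1a1), and the sum of 5 chondrocyte markers, most of it Col2a1, went from 157.3 and 230.1 to 90.5 and 101.0. The 8 genes also fell in LAMZ-treated cells. There, the macrophage sum was 7.56 to 9.28 at day 7 and 7.29 to 7.96 at day 14. The osteoblast sum there was 6639 to 6844 and then 10078 to 11399, again mostly Col1a1, while Runx2 had an RPKM of 17.6 and 18.7 and then 10.7 and 12.6, and Sp7 60.4 and 62.2 and then 45.3 and 55.6. By limma, 4 of 7 osteoblast markers were higher and 1 was lower, where 5.1% of all tested genes were higher and 9.26% lower. Adipocyte markers there summed to 8.73 and 9.67 and then 10.9 and 12.4, and the chondrocyte sum 433.0 and 456.5 and then 311.8 and 328.8. The mitosis genes Aurka and Ccnb1, named below for their likeness to the 8 genes, had a lower RPKM at day 14 in both treatments. The part of macrophages, osteoblasts, adipocytes, chondrocytes or cell division in the fall was not tested in either treatment.

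The order of the levels differed in part between the 4 groups. RPKM is scaled to length, so levels can be set side by side, though the deposited lengths of Srebf2, Hmgcs1, Fdps and Fdft1 were not those of the annotation. Fdps and Hmgcs1 were the first pair by mean RPKM at day 7, with 55.7 and 49.7 in control, where their libraries overlapped, and 70.5 and 54.0 with LAMZ, where they did not. In day 7 control, Insig1 and Srebf2 followed, overlapping each other, and then Cyp51, Fdft1, Sqle and Idi1. With LAMZ at day 7, Srebf2 was above Insig1 without overlap, and Fdft1 had a higher mean than Cyp51, with overlapping libraries. At day 14 in control cells, Hmgcs1 was first with 21.9, followed by Srebf2 with 17.3, Insig1 with 15.8 and Fdps with 15.4, the last pair overlapping. With LAMZ at day 14, Fdps was first again with 21.9, above Hmgcs1 with 19.1. Idi1 was last in all 4 groups, with 11.2 and 12.7 at day 7 and 4.41 and 4.39 at day 14 in control and LAMZ-treated cells.

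Most of the other enzymes of the pathway fell with the 8 genes. Of the 14 further genes listed for the mevalonate and sterol arms, 10 were lower at day 14 without LAMZ and 12 with LAMZ at an adjusted p under 0.05 by limma, with medians of −0.88 and −0.86. Over all tested genes, 2.4% and 9.26% were lower. In the mevalonate arm, Acat2 (−1.05 and −1.13), Mvk (−0.85 and −0.64) and Mvd (−1.34 and −0.92) were lower in control and with LAMZ. Acat2, which joins acetyl-CoA units, had an RPKM of 22.2 and 17.8 in day 7 control, 22.1 and 25.2 with LAMZ at day 7, 8.71 and 9.48 in day 14 control and 9.03 and 11.6 with LAMZ at day 14, so that the days did not overlap. Pmvk was lower in LAMZ-treated cells (−0.83) and missed the threshold in control cells (−0.67, adjusted p = 0.104 by limma).

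In the sterol arm, Lss (−0.98 and −0.87), Msmo1 (−1.01 and −0.99), Nsdhl (−1.02 and −1.07), Hsd17b7 (−0.85 and −0.84) and Sc5d (−0.69 and −0.63) were lower at day 14 in control and LAMZ-treated cells. Dhcr7, which makes the last step to cholesterol, was lower with LAMZ (−0.84) and had a change of −0.59 in control (adjusted p = 0.117 by limma). Tm7sf2, near an RPKM of 1, and Ebp, the sterol isomerase, did not pass in either. Ebp had an RPKM of 7.12 and 7.12 at day 7 and 7.90 and 6.42 at day 14 in control, a log2 change of 0.00052 that became −0.00025 with a pseudocount of 0.1. The count of the 14 genes depended on single libraries: without 1 library it ran from 0 to 10 in control cells, with 0 without day 14 control replicate 1, and from 5 to 12 in LAMZ-treated cells.

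**Figure D3:**
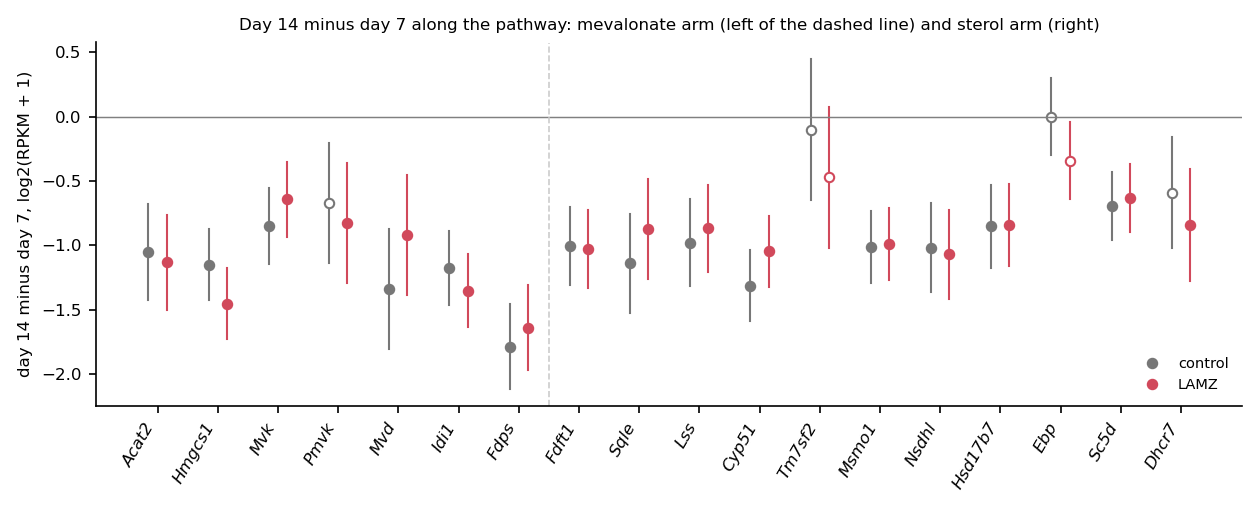
Day 14 minus day 7 in log2(RPKM + 1) for 18 enzymes in the order of the pathway, in control (grey) and LAMZ-treated cells (red), with 95% intervals from limma. Filled points have an adjusted p under 0.05. All of these but Tm7sf2 and Ebp are filled in at least 1 treatment, and Fdps has the lowest value in both.

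**Figure D4:**
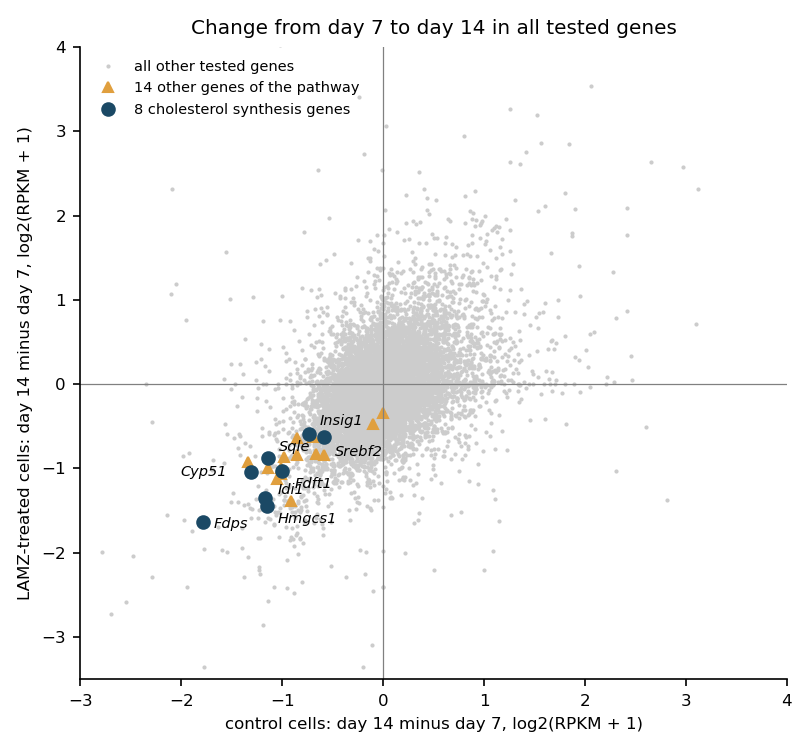
Day 14 minus day 7 in log2(RPKM + 1) in control cells (horizontal axis) and in LAMZ-treated cells (vertical axis) for the tested genes, with 8 genes outside the axes. The 8 cholesterol synthesis genes (blue) and the 14 other genes of the pathway (orange) are marked, and all 8 lie in the lower left part with Fdps farthest out, at −1.78 and −1.64.

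Whether LAMZ moved the fall itself was tested as the difference of the 2 changes. By limma, 0 of the 8 genes passed, where 0.623% of all tested genes passed (0.312% higher and 0.312% lower). An unadjusted p under 0.05 was found for 0 of the 8, beside 2061 of the 12514 tested genes. The estimates ran from −0.30 for Hmgcs1 (95% interval −0.69 to 0.086, adjusted p = 0.406 by limma) to 0.27 for Cyp51 (95% interval −0.12 to 0.65, adjusted p = 0.465 by limma). With 2 libraries per group these intervals are wide, and differences that lie within them are not excluded.

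As tested, at most 1 of the 8 genes was called in a comparison of LAMZ with control. Whether that differs from the shares over all tested genes was not tested. At day 7, 0 of 8 differed from control at an adjusted p under 0.05 by limma, where 12.8% of all tested genes did (4.35% higher and 8.49% lower). An unadjusted p under 0.05 was found for 2 of 8, Insig1 and Fdps, beside 3505 of the 12514 tested genes. At day 14, 1 of 8 was higher, where 6.96% of all tested genes were higher and 23% differed. Averaged over both days 1 of 8 was higher, where 9.12% were higher, 20.3% were lower and 29.5% differed. The gene was Fdps each time. These comparisons use the same libraries as those between days. Control and LAMZ libraries also differed in macrophage markers, and the part of macrophages in any difference with LAMZ was not tested. The median difference of the 8 genes was 0.076 at day 7, 0.086 at day 14 and 0.073 on average, beside −0.080, −0.15 and −0.11 over all tested genes, and it turned to −0.22, −0.23 and −0.23 when every library was rescaled to the same sum, which moved the median of all tested genes to −0.31, −0.43 and −0.37.

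Fdps differed by a log2 of 0.33 at day 7 (95% interval 0.0034 to 0.66, adjusted p = 0.174 by limma), 0.48 at day 14 (95% interval 0.15 to 0.81, adjusted p = 0.0462 by limma) and 0.41 on average (standard error 0.10, adjusted p = 0.0190 by limma). At day 14 its mean RPKM with LAMZ was 1.42 times that of control. Its difference was above 0 in every alternative, but the adjusted p at day 14 was above 0.05 in 12 of 20, among them without either day 14 control library (0.157 and 0.111), either day 14 LAMZ library (0.198 and 0.107) or either day 7 LAMZ library (0.0533 and 0.0532). On average it was above 0.05 in 5 of 19, among them without day 7 LAMZ replicate 2 (0.0704), day 14 control replicate 1 (0.0573) or day 14 LAMZ replicate 1 (0.0680). With every library rescaled to the same sum, the difference at day 14 was 0.13 (adjusted p = 0.430 by limma).

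Insig1 was lower in both LAMZ libraries than in both control libraries on each day. Its log2 difference was −0.31 at day 7 (95% interval −0.57 to −0.047, adjusted p = 0.121 by limma), −0.16 at day 14 (adjusted p = 0.335 by limma) and −0.24 on average (adjusted p = 0.0590 by limma). It did not pass the threshold as tested, and it passed with every library rescaled to the same sum, at −0.60 at day 7 (adjusted p = 0.00848 by limma) and −0.51 at day 14 (adjusted p = 0.00915 by limma). At day 14 it turned to 0.026 when libraries were centred on their medians.

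For the other 6 genes, the differences with LAMZ were small and their intervals included 0 on both days. Srebf2 differed by −0.010 at day 7 (95% interval −0.30 to 0.28) and −0.056 at day 14 (−0.34 to 0.23). Hmgcs1 had 0.11 and −0.19, Idi1 0.17 and −0.0069, Fdft1 0.20 and 0.18, Sqle 0.039 and 0.30, and Cyp51 −0.069 and 0.20, all with an adjusted p from 0.231 to 0.976 by limma. The upper end of the interval for Sqle at day 14 was 0.69, so neither a rise of nearly that size nor no change is excluded. The sign of each of these 6 differences turned on at least 1 day under at least 1 scaling between libraries.

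Beside these changes, genes around the pathway differed between LAMZ and control libraries. The macrophage marker sums differed between the treatments as well, and the part of those cells in the differences below was not tested. In the sterol arm, Ebp was higher with LAMZ, at an RPKM of 14.5 and 15.1 against 7.12 and 7.12 at day 7 and 12.2 and 10.8 against 7.90 and 6.42 at day 14 (log2 0.96 and 0.62, adjusted p = 0.00306 and 0.0114 by limma). Mvk was lower at day 7 (−0.48, adjusted p = 0.0454 by limma), and Mvk (−0.38) and Hsd17b7 (−0.35) were lower on average. With 1 library left out, the average call for Mvk was lost without day 7 LAMZ replicate 2, day 14 control replicate 2 or day 14 LAMZ replicate 1 (adjusted p up to 0.0583 by limma), and that for Hsd17b7 was kept in 2 of 8 fits, those without replicate 2 of either control group (up to 0.107 in the others). Both calls were lost with median centring, quantile normalization and trimmed-mean scaling. Among the genes of uptake and trafficking, the lipoprotein receptor Vldlr (1.28) and the HDL receptor Scarb1 (0.75) were higher on average, and Lrp1 (−0.70) was lower.

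Of 7 genes of the LXR pathway, by which cells sense and export excess sterol, 4 were lower with LAMZ on average, where 20.3% of all tested genes were. Apoe had an RPKM of 39.5 and 39.9 in control and 6.32 and 6.42 with LAMZ at day 7, and 121.3 and 114.0 and then 9.42 and 15.9 at day 14 (log2 −2.46 and −3.16, adjusted p = 0.000360 and 5.6e-05 by limma). The exporters Abca1 (−1.21) and Abcg1 (−1.47) and the ubiquitin ligase Mylip (−0.56) were lower as well. Apoe, Abca1 and Abcg1 are also expressed in macrophages, whose marker list summed to 467.7 to 1181 in control and at most 9.28 in LAMZ libraries, and the part of those cells in these differences was not tested.

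**Figure D5:**
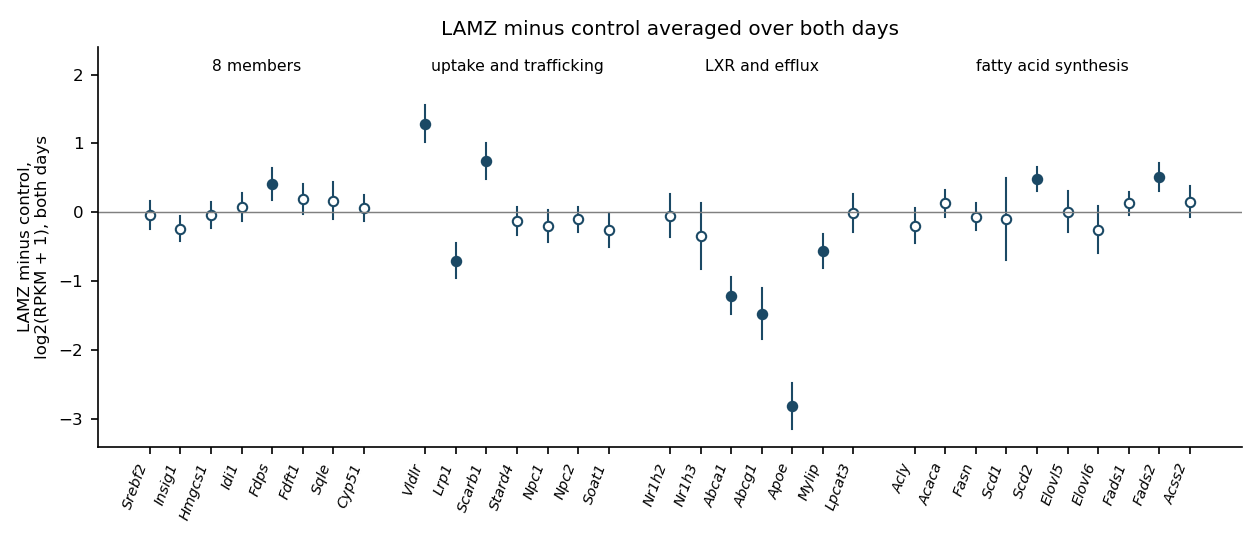
LAMZ minus control averaged over both days, in log2(RPKM + 1) with 95% intervals from limma, for the 8 genes and for genes of 3 related lists. Filled points have an adjusted p under 0.05. Among the 8 genes only Fdps (0.41) is filled, while Apoe (−2.81), Abcg1 (−1.47), Abca1 (−1.21) and Vldlr (1.28) lie farthest from 0.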

How the data were processed

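RNA was measured in 8 libraries, 2 in each of 4 groups as the labels assign them. The value column of day 7 LAMZ replicate 1 carries a heading of another form than the other 7, which does not name LAMZ, and this library was assigned by its sample record alone. Sequencing was by Ion Proton. The authors used CLC Genomics Workbench to count reads per gene and deposited 1 RPKM value per symbol and library. The submitters' processing notes name the build mm10, and the strand setting and program version are not given in the sources used here. A set of 4 entries with repeated symbols was dropped from each table, and 0 columns of other samples were present.

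Mapped reads were recovered from the deposited RPKM as the number at which low values of single-exon genes (GENCODE M21 lengths) became whole reads within 0.05, true of 97.1% to 98.2% of such values (787 to 1384 a library), giving 3463538 to 5832101 mapped reads. Deposited values of Idi1, Sqle, Cyp51 and Insig1 came out as whole reads in 8 of 8 libraries. Intervals from such counts would cover counting error only, and none is given.

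Values were tested as log2(RPKM + 1), so fold changes of low genes are understated, by limma 3.58.1 (R 4.3.3; lmFit, then eBayes with trend). The 12514 genes that reached an RPKM of 1 in 2 or more of the 8 libraries entered as 4 groups without covariates (4 residual degrees of freedom), with Benjamini-Hochberg adjustment over all of them in each contrast and a threshold of 0.05. Tested on simulated data for day 14 against day 7 in control cells (12514 genes, 200 of them changed 2-fold), the fit recovered 68.5% of the changed genes, with 6.80% of calls false. The changed genes were drawn from better expressed ones, with the same length for every gene and an assumed spread not estimated from these libraries. These rates therefore do not carry over to low genes or to the spread between these replicates. Replicates correlated at 0.961 to 0.980 across genes, and none held identical values.

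The members, the marker and pathway lists and the alternatives were chosen with earlier results of these data known. Named were the 8 genes, all genes of both pathway arms, those of the other lists past the threshold in a comparison with LAMZ, and the genes whose levels were most like those of the 8. Some genes of these lists are counted in the totals and not reported here by name. Alternatives were pseudocounts of 0.1 and 5, no filter or a stricter one, other scalings of the libraries, a replicate block, no trend, the compared libraries alone and each library left out. Rescaling to the same sum without Rn7s1, which held 18.1% to 33.7% of the summed RPKM, was added after seeing the data. Motifs were searched in RefSeq promoter windows of GRCm38.p6, and coordinates of genes are those of GENCODE M21 on GRCm38.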

Additional observations from a re-analysis of the deposited data

How the results depend on the processing

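The fall of the 8 genes from day 7 to day 14 kept its direction in all 20 alternatives in each treatment, whereas small differences with LAMZ did not keep theirs. The number of genes past an adjusted p of 0.05 in limma moved as follows. With the compared libraries alone, 0 of the 8 genes, 0 of the 14 other enzymes and 0 of all genes were lower in control cells, though 8 of 8 and 2184 of all genes had an unadjusted p under 0.05, and 624 of all genes differed with LAMZ at day 7. Without a filter, all genes called were 951 for LAMZ at day 7, 203 for time in control, 1091 for time with LAMZ and 0 for the difference between the days (2931 at an unadjusted p under 0.05), and 0 of the 8 genes differed with LAMZ at day 14, as also with a pseudocount of 5 (0) and no trend (0), where Fdps alone had an unadjusted p under 0.05. All genes called for the difference between the days were 34 and 166 with pseudocounts of 0.1 and 5, 157 with an RPKM of at least 1 in all 8 libraries, 138 with trimmed-mean scaling and 30 with no trend.

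Scaling between libraries mattered most for LAMZ. With the same sum, 1, 3 and 4 of the 8 genes and 3592, 5796 and 7207 of all genes differed at day 7, day 14 and on average, and 1135 of all genes with time in control. Of these, 8.69%, 8.16%, 7.76% and 85.6% were higher, against 33.9%, 30.3%, 31.0% and 50.7% as reported, and, for LAMZ, 53.5%, 56.3% and 56.6% with median centring, 45.7%, 47.9% and 49.7% with quantile normalization and 50.6%, 51.3% and 51.5% with trimmed-mean scaling. For time with LAMZ, 35.5% were higher as reported, 63.5% with the same sum, 50.5% with median centring, 48.6% with quantile normalization and 55.7% with trimmed-mean scaling. For the difference between the days the 50% went to 62.7% with median centring and 60.9% with trimmed-mean scaling. The median change of all genes with time in control went from −0.045 to 0.16 with the same sum, where that of the 8 genes was −0.91. Log2 differences with LAMZ that changed sign with the same sum were those of Hmgcs1 (−0.19), Idi1 (−0.11), Fdft1 (−0.087) and Sqle (−0.25) at day 7, Fdft1 (−0.15), Sqle (−0.012) and Cyp51 (−0.13) at day 14, and Idi1 (−0.21), Fdft1 (−0.12), Sqle (−0.13) and Cyp51 (−0.24) on average, and Tm7sf2 changed to 0.051 with time in control. Without Rn7s1 in that sum, 1, 2 and 2 of the 8 genes and 2430, 4382 and 5680 of all genes differed (13.3%, 11.9% and 12.1% higher, and 66.8% with time in control), and the sign changed for Hmgcs1 (−0.088), Idi1 (−0.020) and Sqle (−0.15) at day 7, Fdft1 (−0.045) and Cyp51 (−0.024) at day 14, and Idi1 (−0.12), Fdft1 (−0.019), Sqle (−0.032) and Cyp51 (−0.14) on average.

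With median centring, 2 of the 8 genes differed on average, and the sign changed for Srebf2 (0.10) and Cyp51 (0.044) at day 7, Srebf2 (0.13), Hmgcs1 (0.00061), Idi1 (0.18) and Insig1 (0.026) at day 14, Srebf2 (0.12) and Hmgcs1 (0.11) on average, and Srebf2 (0.031) and Fdft1 (0.052) in the difference between the days. With quantile normalization it was 2 on average, with Srebf2 (0.027) and Cyp51 (0.011) at day 7, Srebf2 (0.043) and Idi1 (0.18) at day 14, Srebf2 (0.035) on average, and Srebf2 (0.016) and Fdft1 (0.029) in the difference. With trimmed-mean scaling, 1 differed at day 7 and 2 on average, with Srebf2 (0.095) and Cyp51 (0.034) at day 7, Srebf2 (0.12), Idi1 (0.15) and Insig1 (0.014) at day 14, Srebf2 (0.11) and Hmgcs1 (0.11) on average, and Srebf2 (0.030) and Fdft1 (0.046) in the difference. Ebp changed to −0.00025 with time in control with a pseudocount of 0.1. The cause of these changes was not tested beyond the scaling itself.

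Leaving out each library in turn, with a lone library assumed to vary like the other groups, gave for the 8 genes 4 to 7 calls with time in control, 5 to 8 with LAMZ, and 0 to 1 for LAMZ at day 14 and on average. For the 14 other enzymes it gave 0 to 10 and 5 to 12. For all genes it gave 69 to 453 with time in control, 488 to 1890 with time in LAMZ-treated cells, 527 to 1383 and 1512 to 3087 for LAMZ at day 7 and day 14, and 0 to 21 for the difference between the days. Signs changed in the ranges of Cyp51 (−0.16 to 0.024), Sqle (−0.11 to 0.19) and Srebf2 (−0.053 to 0.033) at day 7, Idi1 (−0.10 to 0.089) and Srebf2 (−0.16 to 0.051) at day 14, Hmgcs1 (−0.080 to 0.0048) and Srebf2 (−0.087 to 0.020) on average, Fdft1 (−0.14 to 0.095) and Srebf2 (−0.15 to 0.061) in the difference, and Ebp (−0.13 to 0.13) and Tm7sf2 (−0.32 to 0.11) with time in control.

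Same-numbered libraries deviated together by a correlation of −0.034 to 0.078 across genes, so the numbers were not taken to pair them. With the replicate number as a block, 8 of 8 genes were lower with time in each treatment, 0 differed with LAMZ at day 14 (Fdps, adjusted p = 0.0694 by limma), 1 on average, and 17 of all genes in the difference between the days. Idi1 had the fewest reads of the 8 genes, an estimated 69 in its lowest library, so its values carry the most counting error, and 2 libraries per group limit every test.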

Other observations

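Fatty acid synthesis genes, which the related factor SREBP1 is known to drive, fell with time as well. Of 10 listed genes, 5 were lower at day 14 without LAMZ and 7 with LAMZ at an adjusted p under 0.05 by limma, with medians of −0.63 and −0.82. Over all tested genes, 2.4% and 9.26% were lower. Fasn, fatty acid synthase, had an RPKM of 28.9 and 29.8 in day 7 control, 24.9 and 28.7 with LAMZ at day 7, 12.7 and 13.6 in day 14 control and 12.5 and 14.0 with LAMZ at day 14, so that the days lay apart in both treatments, while with LAMZ both day 7 libraries were just below control and the day 14 ranges overlapped. With LAMZ, Scd2 (0.48) and Fads2 (0.52), both desaturases, were higher on average, and Elovl6, an elongase, was lower at day 14 (−0.79, adjusted p = 0.0300 by limma), with 0.29 at day 7 (adjusted p = 0.414 by limma) and −0.25 on average (adjusted p = 0.247 by limma). Srebf1 itself had a change of −0.51 in control (adjusted p = 0.0644 by limma) and −0.36 with LAMZ (adjusted p = 0.103 by limma).

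Of the 5 other SREBP regulators, 0 passed in either comparison between days by limma, where 4.86% of all tested genes did in control and 14.4% with LAMZ. An unadjusted p under 0.05 was found for 1 regulator in control and 2 with LAMZ, beside 2727 and 3969 of the 12514 tested genes. On average over both days, Insig2 was higher with LAMZ (0.46, adjusted p = 0.0218 by limma), and Scap, the escort of SREBP (−0.36, adjusted p = 0.0358 by limma), and the protease gene Mbtps1 (−0.27, adjusted p = 0.0481 by limma) were lower. Each of these 3 calls was lost in several alternatives, among them no filter on low values for all 3, rescaling to the same sum for Insig2, and median centring for Scap and Mbtps1. Of the 6 tested genes of the isoprenoid branches, 0 changed with time in control, and 1 of them had an unadjusted p under 0.05 there. With LAMZ, 1 was lower, where 9.26% of all tested genes were. It was Ggps1 (−0.60, adjusted p = 0.0447 by limma), named after its value was seen. Fnta, a subunit of the protein prenyltransferases, was lower with LAMZ on average (−0.39, adjusted p = 0.0342 by limma). That call was kept in 2 of the 8 fits with 1 library left out, those without day 7 control replicate 2 or day 7 LAMZ replicate 1 (adjusted p up to 0.0937 by limma in the others), and was lost without a filter and with median centring, quantile normalization and trimmed-mean scaling.

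The genes whose levels followed those of the 8 most closely were sought among 5596 tested genes with a mean RPKM of at least 5, by Pearson's r with the average of the standardized levels of the 8 over 8 libraries. Among them were Fasn (0.992), Msmo1 (0.9897), Aurka (0.986) and Ccnb1 (0.983). The libraries fall into the 2 days, so any gene with a large change between days and little else scores high by this measure, and the values are descriptions. Aurka and Ccnb1 act in mitosis. Aurka had an RPKM of 7.23 to 9.56 in the day 7 libraries and 1.69 to 2.75 in the day 14 libraries, and Ccnb1 11.6 to 13.3 and 2.72 to 3.78. Gene by gene, the closest were Hist1h4a to Srebf2, Mcm5 to Insig1, Plk1 to Hmgcs1, Foxk2 to Idi1, Msmo1 to Fdps and Fdft1, Acat2 to Sqle and Fasn to Cyp51. Mcm5, a subunit of the replicative helicase, had an RPKM of 11.2 and 12.7 in day 7 control, 7.63 and 8.75 with LAMZ at day 7, 4.06 and 4.15 in day 14 control and 3.13 and 3.80 with LAMZ at day 14.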
